A study of Mus musculus with 12 samples.

Results

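A set of 10 genes that act as brakes on Toll-like receptor (TLR) signalling was followed through mouse bone-marrow-derived macrophages with or without the kinase FES. They were taken by symbol from a set of known negative regulators: Tnfaip3, Tnip1, Tnip3, Zc3h12a, Zfp36, Birc3, Traf1, Irak3, Cyld and Rc3h1. Each symbol matched 1 row of the deposited table, so that 10 of 55487 genes are described, and all 10 were among the 15801 genes with enough counts to be tested. The cells were primary macrophages grown from marrow in macrophage colony-stimulating factor, from Fes+/+ mice (wild type, 3 mice) or Fes-/- mice (3 mice). The sources used here do not give the mice's age, strain or sex. Cells of each genotype received either PBS, described elsewhere in the labels as untreated, or lipopolysaccharide (LPS, a bacterial cell wall component) at 1 µg/mL for 4 hours. Poly-A-enriched RNA was sequenced from 4 groups of 3 libraries, all with the same batch date. The labels do not say whether the PBS and LPS wells of 1 number came from 1 mouse, and the p-values measure the spread between these libraries. The labels name no promoter or Cre that would limit the Fes-/- allele to a cell type or time, so an effect of FES during macrophage growth cannot be told apart from one during the response.

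LPS binds TLR4, which recruits MYD88 and the IRAK kinases, activates the ubiquitin ligase TRAF6 and through it the transcription factor NF-kB. The pathway is held in check at several steps. A20, encoded by Tnfaip3, edits ubiquitin chains on signalling proteins together with its ubiquitin-binding adaptors ABIN-1 (Tnip1) and ABIN-3 (Tnip3), and CYLD removes ubiquitin chains by a separate enzyme activity. Irak3 encodes IRAK-M, an IRAK family member without normal kinase activity that damps signalling in macrophages. Traf1 and Birc3 encode an adaptor and a ubiquitin ligase (cIAP2) that bind TRAF2. Zfp36 (tristetraprolin, TTP), Zc3h12a (Regnase-1) and Rc3h1 (Roquin-1) act later, by binding or cutting cytokine mRNAs. Several of these genes are themselves known NF-kB targets, which makes them a feedback arm.

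Promoter windows of RefSeq on GRCm38.p6, from 250 bases before to 50 after each annotated start, were searched on both strands because NF-kB and AP-1 are the factors best known to act on these genes. The 10-letter NF-kB consensus was present in the windows of 4 of the 10 genes, against 5.14% of 27025 genes in all (4.51% of 32851 windows). The shorter pattern GGNNTTNCC, which can overlap the consensus, was found in 5 of the 10 genes, against 18% of all genes (16% of windows). The AP-1 pattern TGANTCA was found in Tnfaip3 and Rc3h1, against 8.97% of all genes (7.81% of windows). The stretches before the start that hold the NF-kB consensus are shown because they belong to the gene with the highest fold rise (Tnfaip3), its 2 partners, and the gene with the smallest change (Cyld). Each is written 5′ to 3′ on the gene's strand, with the bases of an NF-kB match in capitals, and each ends at the base before the start site. The Tnfaip3 stretch is shorter because an exon of another isoform lies upstream. The positions are chr10:19015411-19015547 (minus strand) for Tnfaip3, chr11:54962941-54963100 (minus) for Tnip1, chr6:65590238-65590397 (plus) for Tnip3 and chr8:88696868-88697027 (plus) for Cyld.
Tnfaip3: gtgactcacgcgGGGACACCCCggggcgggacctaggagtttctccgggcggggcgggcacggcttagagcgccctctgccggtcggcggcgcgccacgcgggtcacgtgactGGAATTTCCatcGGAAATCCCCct
Tnip1: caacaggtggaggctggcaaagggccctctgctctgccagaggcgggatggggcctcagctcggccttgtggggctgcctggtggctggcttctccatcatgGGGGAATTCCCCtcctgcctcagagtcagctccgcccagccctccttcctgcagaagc
Tnip3: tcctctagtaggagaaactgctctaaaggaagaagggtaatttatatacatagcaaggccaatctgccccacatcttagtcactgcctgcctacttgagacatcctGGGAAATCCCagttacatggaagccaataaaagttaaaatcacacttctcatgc
Cyld: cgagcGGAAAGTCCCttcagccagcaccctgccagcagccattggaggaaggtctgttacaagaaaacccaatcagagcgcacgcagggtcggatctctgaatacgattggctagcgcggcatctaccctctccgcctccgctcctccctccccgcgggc
Counted back from the start, consensus matches began at -125 and -12 in Tnfaip3, at -58, -57 and -56 in Tnip1, where they overlap, at -54 in Tnip3 and at -155 in Cyld. The Tnip3 and Zfp36 starts used are those of RefSeq and lie inside the longer GENCODE genes. No consensus match stood in the windows of Traf1, Zfp36, Zc3h12a, Birc3, Irak3 or Rc3h1. Irak3 had the shorter pattern at -196 from a start inside the gene, and none in the window of its outer start. A match is a description of letters, and binding was not measured.

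The libraries held 61016254 to 101027166 counts. CPM are counts scaled to library sizes adjusted by the TMM factors given below. Fes RNA was 169 to 189 CPM in wild-type PBS libraries and 66.4 to 70.5 in Fes-/- PBS libraries. Under LPS it was 152 to 171 against 32.9 to 35.1, so every library matched its genotype label while Fes RNA remained detectable. Summed macrophage markers (8 of 8 tested, among them Csf1r, Adgre1 and Cd68) were 9830 to 15050 CPM in every group. Lyz2 gave the largest part of this sum. After LPS in wild type the single markers moved both ways, from 2.82 (log2) for Fcgr1 to -0.74 for Mertk. The summed markers of neutrophils, B cells, dendritic cells and fibroblasts stayed at 8.05 CPM or lower in every library. The T and NK cell sum was 0.553 to 0.968 CPM under PBS and 13.7 to 17.0 under LPS, where Lck rose by 5.77 (log2, wild type), Ncr1 had 0 counts in every library and Cd3e, Cd3d and Cd3g had 0 to 4 counts in any group. The B cell sum was 5.96 to 7.94 under PBS and 1.82 to 3.21 under LPS. Most of it was Cd79b, with 1953 counts under PBS and 335 under LPS in wild type. Pax5 went the other way, from 4 to 50 counts. The part of these markers in the results was not tested. The 100 most abundant genes took 19.9% to 21.8% of the counts in PBS libraries and 28.0% to 28.6% in LPS libraries. The TMM factors, which align the bulk of genes between libraries, were 1.35 to 1.40 under PBS and 0.707 to 0.737 under LPS. With them the median LPS change of all tested genes was -0.07 in wild type and -0.08 in Fes-/- (log2), and with library totals alone it was -0.98 and -1.01. Of the genes called in wild type, 47.1% were higher with TMM and 19.2% with totals alone, and in Fes-/- 46.9% and 18.5%. Every LPS change below is on the TMM scale unless stated, and on totals each is lower by nearly that shift of the median. In bulk RNA, fewer cells of a type and less RNA per cell cannot be told apart.

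All 10 regulators were higher after LPS in both genotypes with TMM scaling, although Cyld was lower with library totals or TPM. In edgeR's quasi-likelihood test with Benjamini-Hochberg adjustment, 10 of 10 were called higher in wild type, against 34.6% of all tested genes higher and 38.8% lower. The Fes-/- cells gave the same count, and 10 of 10 were called higher, against 34.3% of all tested genes higher and 38.9% lower. The 10 were chosen as known feedback genes, with earlier results of these data known. Their count above the share of all genes is therefore no independent result. The groups of 3 libraries did not overlap for any of the 10 on the CPM scale, against 75.3% of tested genes in wild type and 77.2% in Fes-/-. The median change of the 10 was 4.17 in wild type and 4.30 in Fes-/- on the log2 scale. The individual rises spread from 1.39-fold to 313-fold in wild type, and fell into a group of 7 genes at 13.9-fold or more and a group of 3 (Irak3, Rc3h1 and Cyld) at 2.91-fold or less.

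**Figure D1:**
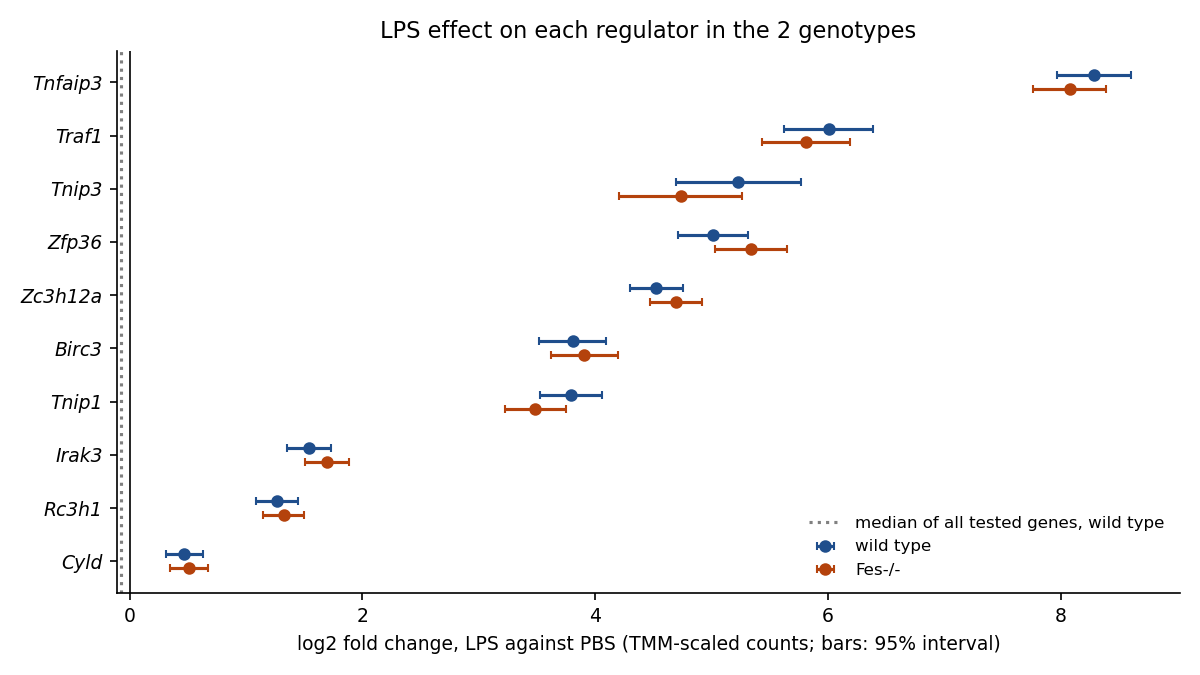
Log2 fold change of LPS against PBS for each regulator (points, edgeR on TMM-scaled counts, with bars for the 95% interval), in wild type (blue) and Fes-/- (orange) macrophages, 3 libraries a group. The dotted line is the median of all tested genes in wild type (-0.07), and the points run from Tnfaip3 at 8.29 to Cyld at 0.47 in wild type.

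Of the A20 system, Tnfaip3 had the highest rise. It measured 10.3, 10.5 and 13.6 CPM in the wild-type PBS libraries and 3389, 3796 and 3595 CPM after LPS. In Fes-/- cells it measured 14.2, 13.7 and 11.9 CPM under PBS and 3596, 3492 and 3686 CPM after LPS. Under LPS the wild-type and Fes-/- libraries were interleaved, and no PBS library came near an LPS one. The wild-type change was 8.29 ± 0.15 (log2, SE), 313-fold, with an adjusted p of 8.30e-15 (edgeR). It ranked 142 among the 15801 tested genes, and in Fes-/- cells the change was 8.08 ± 0.15. Tnip1 encodes ABIN-1, the adaptor through which A20 meets its ubiquitinated substrates. It was at 58.2, 65.2 and 70.2 CPM in wild-type PBS libraries and 863, 978 and 842 after LPS, a change of 3.79 ± 0.12 (adjusted p = 1.17e-12, edgeR). In Fes-/- cells it was at 71.8, 71.3 and 66.2 CPM under PBS and 773, 662 and 910 after LPS, a change of 3.49 ± 0.12. The Fes-/- LPS libraries spread more widely for Tnip1 than the wild-type ones, with 2 below every wild-type value and 1 inside their range. Tnip3, the adaptor ABIN-3, was the most variable of the 10 in wild-type cells at rest. It was at 68.4, 33.6 and 54.9 CPM in wild-type PBS libraries, where library 2 was low, and at 71.4, 78.1 and 58.6 in Fes-/- PBS libraries. After LPS it reached 1820, 2242 and 1834 CPM in wild type and 1857, 1644 and 2039 in Fes-/-. The change was 5.23 ± 0.25 in wild type and 4.73 ± 0.24 in Fes-/-, the largest standard errors of the 10.

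The RNA-binding brakes rose to different degrees. Zfp36 encodes TTP, which binds AU-rich elements of cytokine mRNAs and recruits the deadenylation machinery. It went from 81.8, 113 and 98.9 CPM to 3060, 3297 and 3124 in wild type, and from 76.1, 66.3 and 84.8 to 2951, 2948 and 3306 in Fes-/-. The change was 5.01 ± 0.14 and 5.34 ± 0.14, and the PBS libraries of the 2 genotypes overlapped through Fes-/- library 3. An antisense gene, Gm44710, shares 125 bases (3.60%) of the Zfp36 exons, and the sources used here do not say whether counting used strand. Zc3h12a encodes Regnase-1, an endonuclease that cuts stem-loop-bearing transcripts. It measured 14.5, 18.5 and 16.1 CPM in wild-type PBS libraries and 357, 394 and 382 after LPS. In Fes-/- cells the values were 16.6, 14.1 and 14.9 under PBS and 396, 381 and 404 under LPS. Its changes of 4.53 ± 0.11 and 4.69 ± 0.11 came from libraries that spread less than the gap between treatments in either genotype. Rc3h1 encodes Roquin-1, which recognises many of the same stem-loops. It was at 74.0, 86.5 and 71.8 CPM under PBS and 178, 192 and 188 under LPS in wild type, and at 82.2, 79.8 and 71.0, then 190, 192 and 201 in Fes-/-. Its change was 1.26 ± 0.08 in wild type (2.40-fold) and 1.32 ± 0.08 in Fes-/-, or 0.35 and 0.39 on library totals, still called higher.

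Of the TRAF-binding pair, Traf1 was the lowest of the 10 at rest per length and rose most after Tnfaip3. Its wild-type PBS libraries were at 9.65, 8.64 and 11.7 CPM and the LPS libraries at 637, 653 and 638. The Fes-/- libraries were at 14.9, 9.66 and 9.89 CPM under PBS and 663, 669 and 599 under LPS. The change was 6.01 ± 0.18 in wild type (64.3-fold) and 5.81 ± 0.18 in Fes-/-. Birc3, the cIAP2 ubiquitin ligase, was at 32.1, 46.2 and 44.1 CPM in wild-type PBS libraries and 574, 587 and 553 after LPS. In Fes-/- it was at 42.7, 33.4 and 38.5, and then 571, 546 and 602. Its changes were 3.81 ± 0.13 and 3.91 ± 0.13. Birc2, which encodes the related ligase cIAP1, was 25.2 ± 2.40 CPM (SD, n = 3) under PBS and 120 ± 4.94 under LPS in wild type. The ratio of Birc3 to Birc2 TPM went from 1.48 ± 0.204 to 4.35 ± 0.308 in wild type (SD, n = 3). In Fes-/- it went from 1.38 ± 0.0638 to 3.89 ± 0.506 (SD, n = 3). PBS and LPS libraries did not overlap in this ratio, and the share among other gene pairs was not counted.

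Irak3 and Cyld changed least, beside Rc3h1. Irak3, which encodes the IRAK-M protein, was at 34.9, 43.0 and 36.2 CPM in wild-type PBS libraries and 113, 109 and 110 after LPS. In Fes-/- libraries it was at 34.3, 38.7 and 36.9, and then 115, 114 and 128. The change was 1.54 ± 0.09 in wild type (2.91-fold, adjusted p = 4.73e-10, edgeR) and 1.70 ± 0.09 in Fes-/-, and on library totals 0.63 and 0.76, still called higher. Exons of Tmbim4 on the other strand share 192 bases (5.22%) with those of Irak3, and reads there cannot be assigned without strand. Cyld, the deubiquitinase that trims linear and K63-linked chains, was at 56.7, 59.3 and 55.3 CPM in wild-type PBS libraries and 72.3, 84.2 and 80.8 after LPS. Its Fes-/- libraries were at 59.6, 51.8 and 55.9, and then 78.9, 81.2 and 78.5 CPM. All LPS libraries were above all PBS libraries on this scale, and the change was 0.47 ± 0.08 in wild type (adjusted p = 4.62e-05, edgeR) and 0.51 ± 0.08 in Fes-/-. On library totals the same counts gave -0.44 (adjusted p = 3.74e-05, edgeR) and -0.42. The alternatives that gave a fall in wild type were library totals and the 2 TPM scales, with adjusted p-values of 3.74e-05 to 1.28e-04 (edgeR and limma). On TPM the LPS libraries were all below the PBS libraries, at 15.2 ± 1.14 against 21.0 ± 0.844 in wild type (SD, n = 3), where the TPM of 85.3% of all tested genes did not overlap. Set against the median of all tested genes, the change of Cyld was 0.54 in wild type and 0.59 in Fes-/-, the same under either scaling of the counts because the scaling moves all genes alike. On log2(TPM + 1) it was 0.23 and 0.28, and on log2(TPM + 0.1) 0.48 and 0.53.

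**Figure D2:**
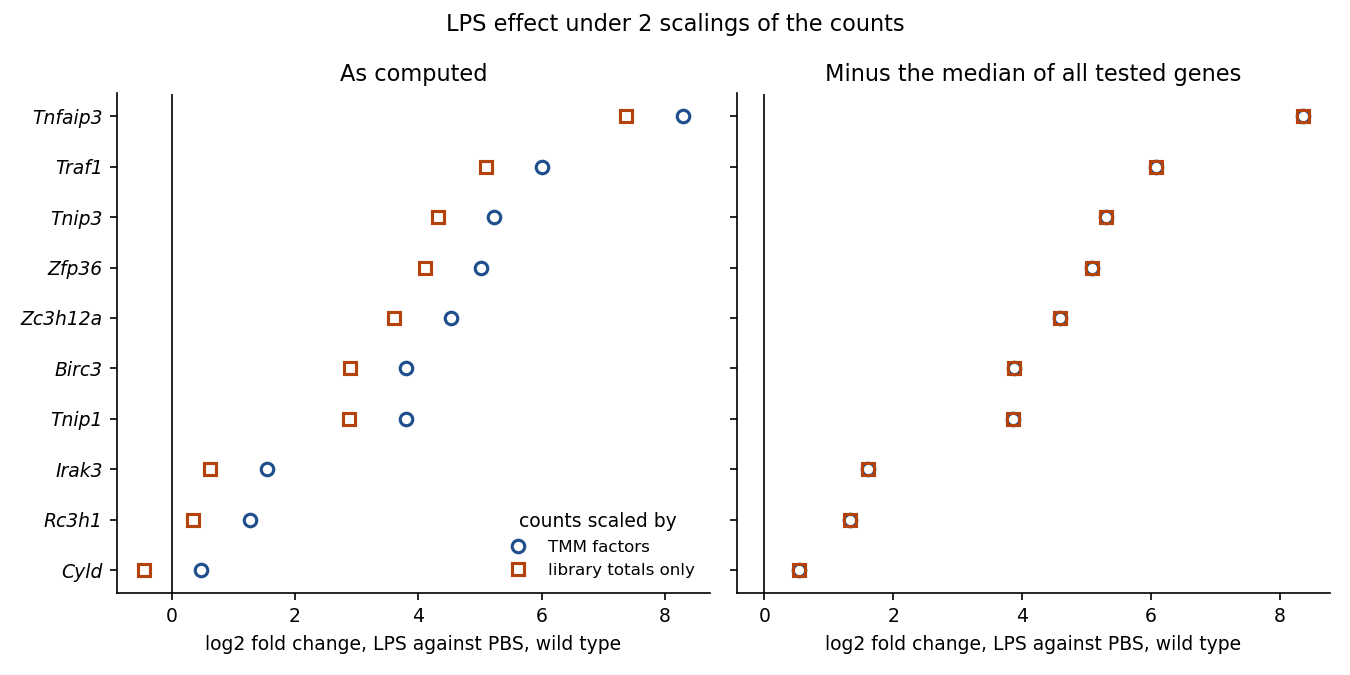
Log2 fold change of LPS against PBS in wild type for each regulator, with counts scaled by TMM factors (blue circles) or by library totals only (orange squares), as computed (left) and after subtracting the median of all tested genes (right). Cyld is at 0.47 with TMM and at -0.44 with totals, and both markers are at 0.54 in the right panel, where the 2 scalings coincide by construction.

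The order of the levels changed with LPS. Per transcript length, in TPM (transcripts per fixed total, as deposited), Zfp36 was highest in wild-type PBS libraries at 130.5 ± 21.0 (SD, n = 3), followed by Tnip1 at 84.9 ± 7.82 and Irak3 at 48.1 ± 5.76, none overlapping the next. Birc3 (37.8), Rc3h1 (31.4), Zc3h12a (26.4), Tnip3 (22.2) and Cyld (21.0) followed, and within this run of 5 each gene's libraries overlapped those of the next. Tnfaip3 (7.37 ± 1.14) and Traf1 (5.25 ± 0.80) were the lowest. After LPS the wild-type order was Zfp36 (2195 ± 73.5), Tnfaip3 (1200 ± 63.4), Tnip1 (612), Tnip3 (434), Zc3h12a (317), Birc3 (275), Traf1 (176), Irak3 (72.9), Rc3h1 (39.3) and Cyld (15.2), and no neighbours overlapped. Tnfaip3 thus went from rank 9 of the 10 to rank 2, and among all 55487 genes Zfp36 stood at rank 57 and Tnfaip3 at rank 114 after LPS. In Fes-/- libraries the LPS order was the same, and Tnip1 and Tnip3 overlapped. At rest the Fes-/- order differed from wild type in 1 exchange, Tnip3 (30.6 ± 5.35) before Zc3h12a (25.3 ± 2.57), 2 neighbours that overlapped in both genotypes. The sum over the 10 genes was 415 ± 37.5 TPM under PBS and 5337 ± 241 under LPS in wild type, and 409 ± 21.7 and 5245 ± 373 in Fes-/-. These TPM values rest on the summed length of all annotated exons, which is long for Tnip3 (10916 bases), Rc3h1 (11308) and Cyld (12576). Traf1 (8819) and Tnfaip3 (7226), the lowest at rest, come next in length. An isoform with fewer exons would have a higher level, so the order between genes depends on these lengths.

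**Figure D3:**
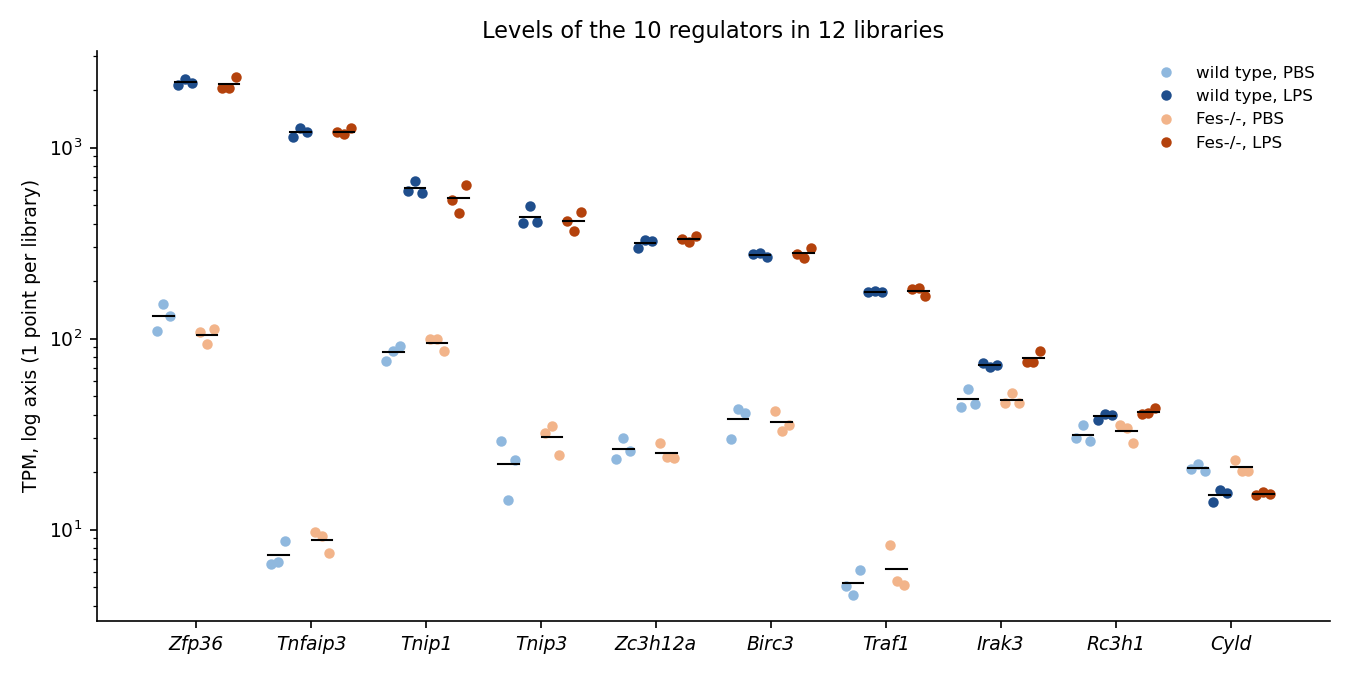
TPM of each regulator on a log axis, 1 point per library, in the 4 groups (light blue, wild-type PBS; dark blue, wild-type LPS; light orange, Fes-/- PBS; dark orange, Fes-/- LPS), with a bar at each group mean. Tnfaip3 lies at 7.37 TPM under PBS and 1200 under LPS in wild type, while Cyld goes from 21.0 to 15.2 on this scale.

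The balance within the brakes shifted, as ratios of TPM in the same library, which do not depend on the scaling. The ratio of Tnip3 to Tnip1 was 0.266 ± 0.107 under PBS and 0.708 ± 0.0301 under LPS in wild type, and 0.320 ± 0.0339 and 0.766 ± 0.0398 in Fes-/- (SD, n = 3). Tnfaip3 was 0.0867 ± 0.00778 times Tnip1 at rest and 1.96 ± 0.103 times after LPS in wild type. It was 0.0928 ± 0.00443 and 2.27 ± 0.299 times in Fes-/-. For the deubiquitinases, the ratio of Tnfaip3 to Cyld was 0.352 ± 0.0660 at rest and 79.1 ± 2.12 after LPS in wild type, and 0.416 ± 0.0441 and 78.6 ± 3.47 in Fes-/-. The ratio of Zc3h12a to Rc3h1 was 0.839 ± 0.0570 and 8.05 ± 0.0843 in wild type, and 0.777 ± 0.0709 and 8.03 ± 0.196 in Fes-/-. Zfp36 was 4.93 ± 0.224 times Zc3h12a at rest and 6.94 ± 0.167 times after LPS in wild type, and 4.14 ± 0.495 and 6.46 ± 0.308 times in Fes-/-. For each of these ratios the PBS and LPS libraries of a genotype did not overlap. Single genes often showed the same, with no overlap in TPM for 85.3% of all tested genes in wild type. The share among other gene pairs was not counted, so whether these shifts are particular to the brakes was not tested.

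The loss of FES was then compared under each treatment. None of the 10 was called between the genotypes under PBS in edgeR (0 of 10, against 0.0823% of all tested genes), and DESeq2 called 0. In edgeR 1 of the 10 had an unadjusted p under 0.05, as had 605 of all 15801 tested genes. The 1 regulator was Zfp36, at -0.37 ± 0.12 (95% interval -0.62 to -0.11, unadjusted p = 0.00785, adjusted p = 0.975). Its mean was lower in Fes-/- libraries, with overlapping values. Tnip3 had a difference of 0.41 ± 0.21 (-0.05 to 0.86) and Tnfaip3 of 0.21 ± 0.11 (-0.03 to 0.45). Both moved by over 1.5 times with 1 library left out. The Tnip3 difference was 0.16 without wild-type PBS library 2, which was low, and 0.64 without library 1. The Tnfaip3 difference was 0.13 without wild-type PBS library 1, 0.34 without library 3 and 0.14 without Fes-/- PBS library 1. With no filter on low counts, the same test called Tnip3 (0.39, adjusted p = 0.0252) and Zfp36 (-0.38, adjusted p = 0.0437), among 315 genes in all, against 13 with the filter. Over the other 20 alternatives the lowest adjusted p was 0.499 for Tnip3 and 0.283 for Zfp36. Across the 10 genes the 95% intervals under PBS lay between -0.62 and 0.86. None of the 10 had groups free of overlap, against 6.82% of all tested genes. The summed neutrophil markers under PBS were 5.25 to 7.19 CPM in wild type and 3.56 to 4.79 in Fes-/-, without overlap. Of the 6 that were tested, edgeR called 0, 2 had an unadjusted p under 0.05 and DESeq2 called 1, and their part in these differences was not tested.

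Under LPS again 0 of 10 were called (0.108% of all tested genes), with 0 at an unadjusted p under 0.05 (6.52% of all tested genes) and 0 in DESeq2. Tnfaip3 differed by -0.00098 ± 0.11, with an interval of -0.23 to 0.23, and Cyld by 0.0074 ± 0.08 (-0.15 to 0.17). Tnip1 was at -0.19 ± 0.11 (-0.43 to 0.04), and its Fes-/- libraries spread over both sides of the lowest wild-type one. Its difference was -0.09 without Fes-/- LPS library 2, -0.31 without Fes-/- LPS library 3 and -0.12 without wild-type LPS library 2. Irak3, at 0.10 ± 0.09 (-0.08 to 0.28), was the only 1 of the 10 whose Fes-/- and wild-type LPS libraries did not overlap, as was the case for 11.4% of all tested genes, and its difference was 0.05 without Fes-/- LPS library 3. The difference of the 2 LPS effects, Fes-/- minus wild type, was called for 0 of 10 (0.019% of all tested genes). It had an unadjusted p under 0.05 in 0 of 10 (464 of 15801 tested genes), and DESeq2 called 0. Its values ran from -0.50 ± 0.29 for Tnip3 (-1.14 to 0.14) to 0.33 ± 0.17 for Zfp36 (-0.03 to 0.69), and Tnip1 was at -0.31 ± 0.16 (-0.64 to 0.03). The Tnip3 value was -0.26 without wild-type PBS library 2 and -0.73 without library 1, and the Tnip1 value was -0.20 without Fes-/- LPS library 2. These intervals leave room for differences of up to 1.14 (log2) in the response of Tnip3, and a p that misses the threshold does not show equal responses.

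**Figure D4:**
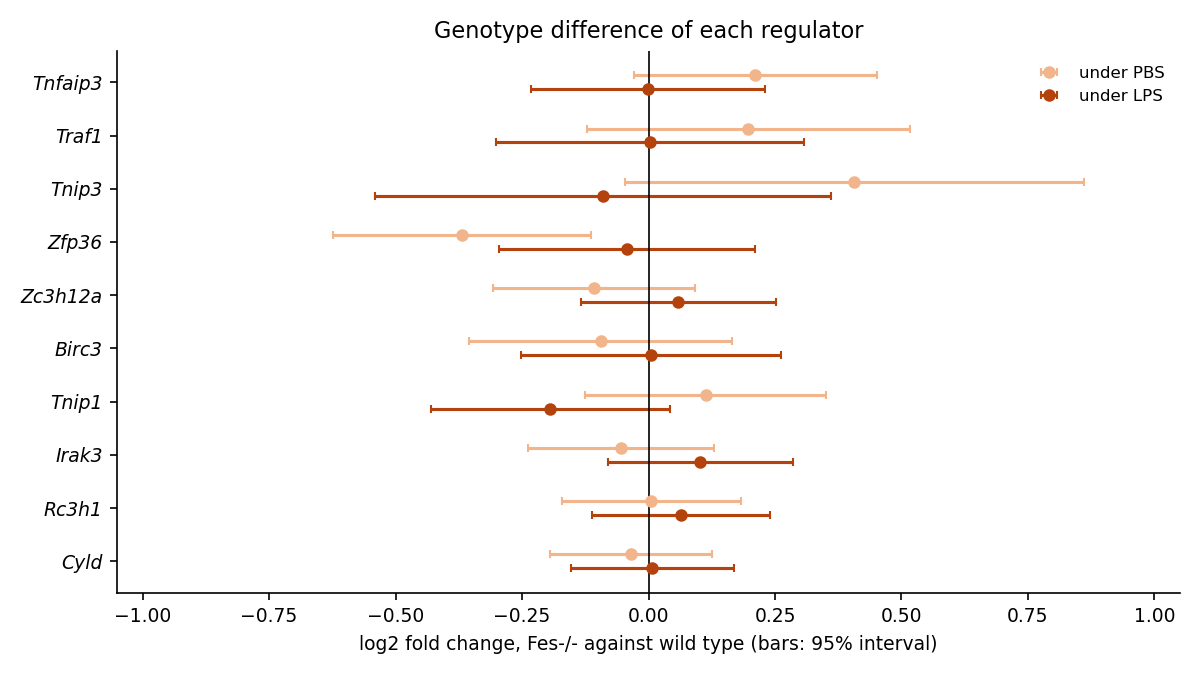
Log2 fold change of Fes-/- against wild type for each regulator (points, with bars for the 95% interval), under PBS (light orange) and under LPS (dark orange), 3 libraries a group. The interval of Zfp36 under PBS (-0.62 to -0.11) lies below 0, and the intervals of the other 9 genes under PBS and of all 10 under LPS include 0.

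Other genes of the same steps, from lists drawn up for these pathways, are given as counts with TMM scaling and then with library totals. Of all tested genes in wild type, 34.6% were called higher and 38.8% lower with TMM, and 16.3% higher and 68.5% lower with totals, and each list's counts are read against these shares. Of 12 A20 partners and linear ubiquitin enzymes, 7 were called higher and 2 lower in wild type (median 0.25), but 3 and 9 with totals. Among them Rnf31, the catalytic subunit of the linear ubiquitin ligase, rose by 2.54 ± 0.08 (log2), Tax1bp1, an A20 adaptor, by 2.33 ± 0.14 and Tnip2, the ABIN-2 gene, by 1.83 ± 0.14. Of 9 TRAF and IAP partners, 7 were higher and 2 lower (median 0.73), 3 and 4 with totals, with Tank at 3.26 ± 0.12, Traf2 at 2.40 ± 0.08 and Birc2 at 2.26 ± 0.10. Of 23 RNA decay partners and relatives, 13 were higher and 6 lower (median 0.35), 10 and 12 with totals. Malt1, the protease that cleaves Regnase-1, rose by 5.75 ± 0.12, N4bp1, a related ribonuclease, by 3.37 ± 0.09, and Mapkapk2, a kinase that phosphorylates TTP, by 3.16 ± 0.10. Among the lower genes were the relatives of Zfp36, Zfp36l1 at -3.75 ± 0.17 and Zfp36l2 at -3.55 ± 0.13. Of 11 genes of the TLR4 and IRAK step, 7 were higher and 4 lower (median 0.91), 4 and 5 with totals. Peli1, a ubiquitin ligase of the IRAK step, rose by 4.88 ± 0.11, Irak2 by 3.80 ± 0.09 and the adaptor Myd88 by 3.03 ± 0.09.

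The NF-kB subunits and IkB proteins were called higher in 9 of 9 genes in either genotype and with either scaling (median 3.46 in wild type). Nfkbia, the IkB-alpha inhibitor, rose by 5.51 ± 0.14, Nfkb1 by 3.74 ± 0.08 and Nfkbib by 3.46 ± 0.09. Of 15 inflammatory transcripts known as targets of TTP, Regnase-1 or Roquin, 13 were higher and 1 lower, 13 and 2 with totals. Their median was 8.43, or 8.19 with Csf2, which had 0 counts in the wild-type PBS libraries, set at its lower bound of at least 109-fold higher (against 3 counts over the group). Ccl3, a chemokine, went from 8.65 ± 0.775 to 6576 ± 543 CPM in wild type, Nfkbiz from 11.9 ± 0.651 to 1176 ± 43.6, and Il10 from 2.28 ± 0.324 to 355 ± 76.0 (SD, n = 3). In Fes-/- the higher and lower counts of the lists were 8 and 1 (A20 partners), 6 and 2 (TRAF and IAP), 14 and 5 (RNA decay), 7 and 4 (TLR4 and IRAK), 13 and 1 (decay targets) and 9 and 0 (NF-kB and IkB). No gene of any list was called between the genotypes in edgeR or DESeq2 under either treatment or for the difference of the LPS effects. Over all tested genes edgeR called only 0.0823% under PBS, 0.108% under LPS and 0.019% for that difference. The largest number with an unadjusted p under 0.05 was 4 of the 15 decay targets under LPS, whose median difference was 0.24, against 6.52% of all tested genes with such a p.

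**Figure D5:**
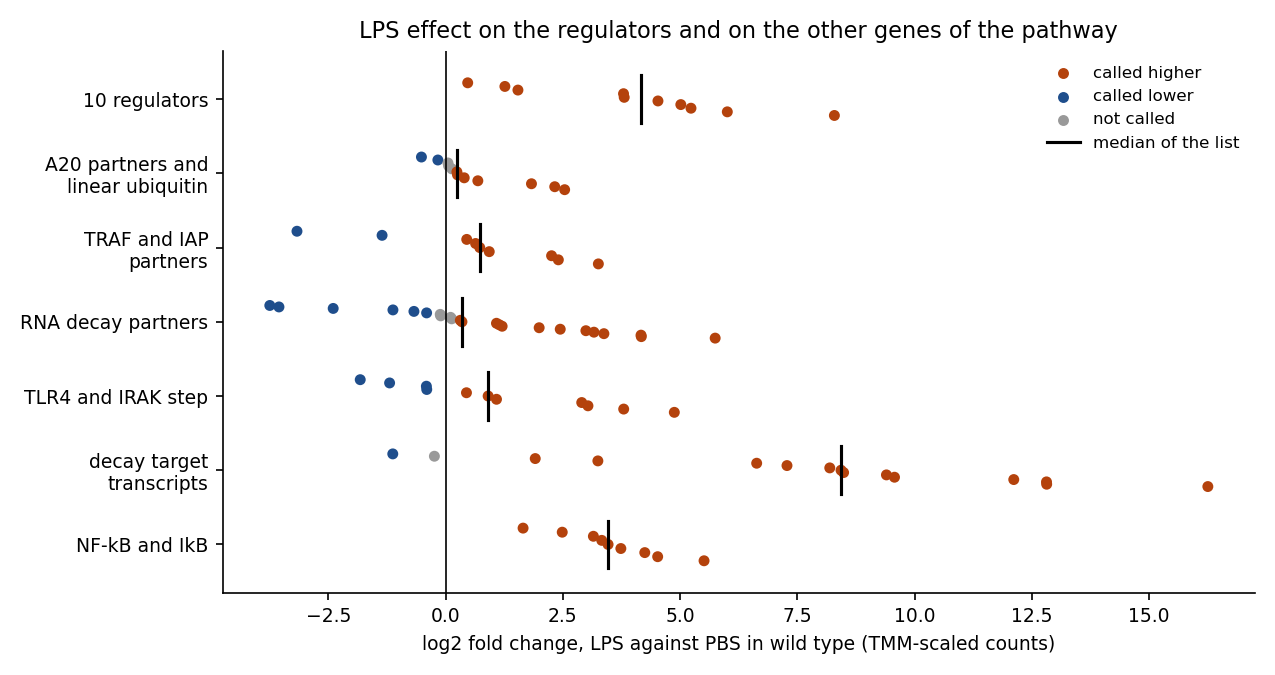
Log2 fold change of LPS against PBS in wild type (edgeR, TMM-scaled counts) for the 10 regulators and for each list of other genes of the pathway, 1 point per tested gene, coloured by call, with a line at the median of each list. The medians are 4.17 for the 10 regulators, 3.46 for NF-kB and IkB genes and 8.43 for decay targets, while the other lists lie between 0.25 and 0.91. The highest points of the decay targets include genes with 0 to a few counts under PBS, whose fitted values depend on the prior count.

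Genes like Tnfaip3 were sought among the tested genes, leaving out the other 9 regulators and Gm or Rik gene models. The 5 whose log2 CPM profile over the 12 libraries was most like that of Tnfaip3 (smallest root mean square difference of centred profiles) were Bcl2a1a (0.17), Vcan (0.22), Cmpk2 (0.23), Tarm1 (0.25) and Ifitm7 (0.25). Bcl2a1a, a BCL2 family survival gene, has near-identical copies, so its counts are uncertain. Vcan, the matrix proteoglycan versican, was at 1.79 CPM under PBS and 626 under LPS in wild type, and Cmpk2, a mitochondrial nucleotide kinase, at 31.0 and 9190. Ifitm7 had 0 CPM in the PBS libraries of both genotypes and 9.89 and 8.37 under LPS. Its profile and its place among the 5 thus depend on the prior count of 2 added before taking logs. Bcl2a1a was also low under PBS, at 0.126 CPM in wild type and 0.150 in Fes-/-, so the prior count bears on its place too. Of the other 9 regulators the nearest to Tnfaip3 was Traf1 (1.14, rank 189 with all tested genes counted, gene models included). Zfp36 (1.52) and Tnip3 (1.61) followed, and Cyld was the farthest (3.85).

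Libraries of a group moved partly together over the 10 genes. Wild-type PBS library 1 was below its group mean in 9 of the 10 genes, wild-type LPS library 2 above it in 9, Fes-/- PBS library 1 above it in 9 and Fes-/- LPS library 3 above it in 8. The median of these deviations was at most 0.13 (log2) in size, -0.13 in wild-type PBS library 1. These counts were not made over all tested genes, and whether the movement is particular to the 10 was not tested.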

How the data were processed

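The authors deposited raw counts, whole numbers per gene and library. TPM values (scaled by gene length and to a fixed total) were also used as deposited by the authors. Per the submitters' processing notes, they used DESeq2 1.34.0, R 4.1.12, Picard 2.9.0 and STAR 2.7.8a, with builds GRCm38 and mm9 named without roles. The sources used here do not name the program that counted reads. Counts divided by TPM gave exon lengths within 1% of GENCODE M21 on GRCm38 for 98.6% of 10553 genes, so positions were read from that annotation.

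In R 4.3.3 with edgeR 4.0.16, filterByExpr left 15801 genes, TMM factors were applied, and 1 mean per group was fitted over 12 libraries (robust quasi-likelihood, 8 residual degrees of freedom). The 5 comparisons were two-sided, adjusted over all tested genes (Benjamini-Hochberg) and called under 0.05. The genotype comparison under PBS was also run on counts simulated from the fitted dispersions, with the outcome not reported here. The LPS comparisons were not checked in that way. CPM uses TMM-scaled library sizes. Levels of different genes were compared only in TPM. Alternatives were DESeq2 1.42.0, RLE factors, library totals, 2 other filters, the compared groups alone, limma-trend 3.58.1 on log2(TPM + 1) and log2(TPM + 0.1), replicate blocks and each library left out. Figures used matplotlib 3.10.9 in Python 3.11.15.

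The 10 genes and the lists were chosen with earlier results of these data known. All 10 were named, Fes as the check of genotype, from each list the 3 tested genes with the smallest p for LPS in wild type, and the 5 named genes most like Tnfaip3. Zfp36l1 and Zfp36l2 were named outside this rule, as relatives of Zfp36 that fell. No replicate number was used as a pair.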

Additional observations from a re-analysis of the deposited data

How the results depend on the processing

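The number of regulators called for LPS in either direction was 10 under all 22 alternatives in wild type and all 22 in Fes-/-, with each library left out included (10 to 10). Of all 15801 tested genes, 11601 were called in either direction in wild type with TMM and 13407 with library totals. In Fes-/- these were 11574 and 13574. The number called between the genotypes was 0 in 20 of 21 alternatives under PBS, the exception being the unfiltered table, which gave 2 (Tnip3 and Zfp36). It was 0 in 21 of 21 under LPS and in 21 of 21 for the difference of the LPS effects. With a library left out, all 3 genotype counts ranged from 0 to 0. The direction of Cyld under LPS turned with the scaling. In wild type it was -0.44 with library totals, -0.45 on log2(TPM + 1) and -0.47 on log2(TPM + 0.1), and in Fes-/- it was -0.42, -0.44 and -0.46. Regulators higher in all LPS than all PBS libraries of wild type numbered 10 in CPM and 9 in TPM. Of all tested genes, 75.3% in CPM and 85.3% in TPM had no overlap, in either direction. Among uncalled genotype differences, the sign changed in 12 of 210 values under PBS, 22 of 210 under LPS and 5 of 210 for the difference of the LPS effects.

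Replicate numbers were not treated as pairs. Same-numbered PBS and LPS libraries of a genotype had deviations correlated at 0.0678 to 0.189, over 0.1 in 4 of 6 pairs, and 12 of 12 libraries correlated best with their own number, a hint from the data and not the design. Across genotypes the values of same-numbered libraries were -0.156 to 0.0161. Differently numbered libraries of the 2 genotypes reached 0.220 (wild-type PBS 2 with Fes-/- PBS 3), above every same-numbered value within a genotype. With the replicate block, 10 regulators were called for LPS in each genotype and 0 between genotypes or for the difference of the LPS effects, with the number blocked across all groups or, where it could be fitted, within a genotype.

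Groups of 3 libraries limit the genotype comparisons, whose 95% intervals reach 0.86 under PBS.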
